A study of Mus musculus with 10 samples.

Results

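The comparison described here set macrophages sorted from pancreatic tumours of mice labelled as carrying an Ahr conditional knockout (cKO) against macrophages sorted from tumours of control mice. Its members are 6 of the 10 RNA-seq libraries of the study, 3 in either tumour group, taken over every gene with a deposited FPKM (a level corrected for gene length and for library size) of at least 1 in 3 or more libraries. That filter kept 11127 of the 12535 genes in the table. At its edge, Gbp10 was just inside and Pck1 just outside, since in both the FPKM of rank 3 rounds to 1.00.

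The tumours behind the 6 libraries were grown for 14 days after cells had been implanted in the pancreas. The implanted cells were of MT4, a KPC organoid line of mouse pancreatic adenocarcinoma. Cells positive for CD45, CD11b and F4/80 (surface proteins of leukocytes, myeloid cells and macrophages) were then sorted. The control group carried the genotype C57/BL6 Ahr fl/fl and the other group C57/BL6 Ahr fl/fl Lys M. The floxed Ahr allele was thus common to both groups, and the label Lys M, with Lyz2-AhR cKO in the series text, names a Cre recombinase expressed from the lysozyme locus Lyz2. That driver is active in macrophages, monocytes and neutrophils rather than in macrophages alone. The control genotype names no driver, so any effect of the driver itself cannot be told apart from one of Ahr loss. The 4 other libraries, of macrophages from healthy pancreas of C57/BL6 WT mice (resident macrophages), served here to estimate the spread and as a reference level. A single tumour line was used. The series text gives 3 mice for either tumour group, but nothing ties a library to a mouse, so every p-value speaks of the variation among these libraries alone, which may be technical.

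The spread within a tumour group was small. Among genes between 100 and 1000 FPKM the coefficient of variation had a median of 2.41% among the control libraries and 2.49% among the cKO-labelled ones. The squared difference of libraries of 1 group was 2.06 to 3.02 times what counting noise alone would give, so no pair agreed within counting noise; this does not show that they are separate biological samples, and all 6 were used as labelled. Depth recovered from the smallest FPKM steps was 10311263 to 26455632 reads. Macrophage genes were abundant in all 6 libraries: Adgre1, which encodes F4/80, was at 490 to 593 FPKM, Itgam (CD11b) at 55.8 to 81.9 and Csf1r, the receptor for macrophage colony-stimulating factor, at 449 to 540.

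The aryl hydrocarbon receptor (AhR) is a transcription factor held in the cytoplasm by chaperones until it binds a ligand, such as a tryptophan metabolite or an environmental aromatic compound. It then enters the nucleus, pairs with ARNT and binds DNA at sites with the core GCGTG. ARNT is also the partner of the hypoxia-inducible factors (HIF), whose sites share that core or have ACGTG in its place. In macrophages AhR is known for xenobiotic metabolism, for a negative feedback on its own pathway through AHRR and TIPARP, and for effects on inflammatory and immunosuppressive programs.

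Across all genes, 4410 of 11127 (39.6%) passed the test between the groups, which was limma on log2(FPKM + 1) with a Benjamini-Hochberg adjusted p under 0.05. Of these, 2283 (20.5%) were higher in cKO-labelled macrophages and 2127 (19.1%) were lower. Most were small changes: the median size of those that passed was 0.29 on the log2 scale. Only 480 genes (4.31%) also changed by at least 1.5-fold, 303 upward (2.72%) and 177 downward (1.59%), and 147 (1.32%) by at least 2-fold, 112 upward (1.01%) and 35 downward (0.315%). In 5715 genes (51.4%) the 3 values of either group did not overlap those of the other. The split by direction depended on scaling. The FPKM of a library sum to 459374 to 463004 in the control group and to 482447 to 493850 in the cKO-labelled group, and when every library was rescaled to the same sum, 1501 genes were higher and 3069 lower, with the median of all genes moving by -0.07. Every log2 change was computed from log2(FPKM + 1) and so understates the change of low genes.

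**Figure D1:**
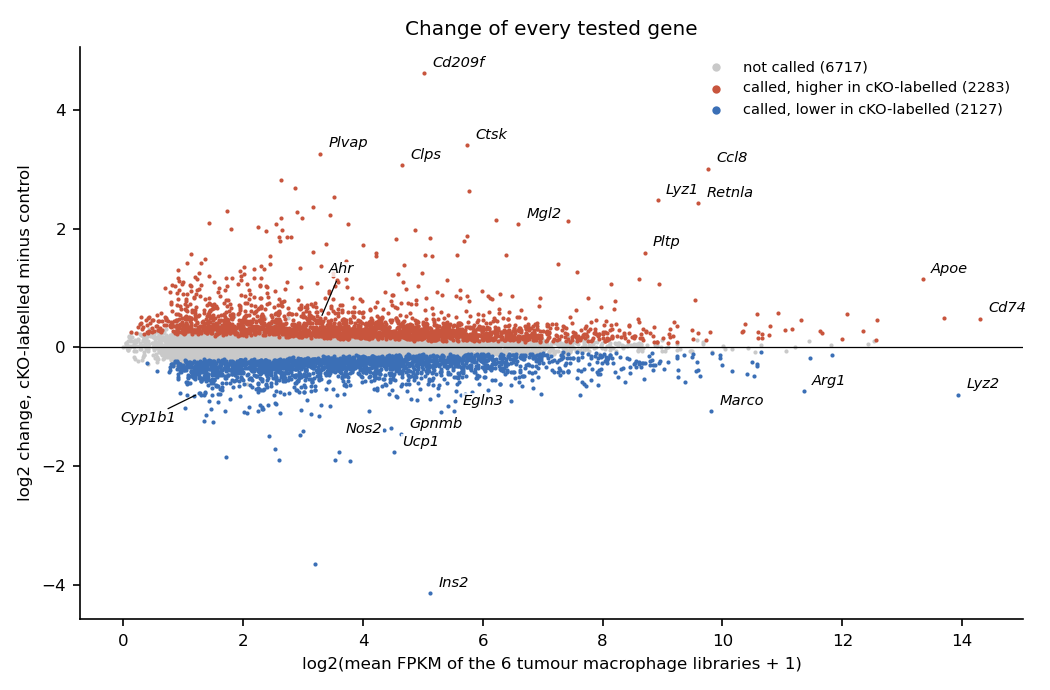
Each point is 1 of the 11127 genes tested, placed by its mean level in the 6 tumour libraries (horizontal axis, log2 of FPKM + 1) and its log2 change (vertical axis). Red and blue points passed the test upward and downward; Cd209f at 4.62 and Ins2 at -4.13 are the extremes.

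The gene named in the labels was not lower in the cKO-labelled libraries. Ahr (chr12:35497974-35535038, minus strand, GRCm38) was at 7.11, 6.91 and 7.51 FPKM in the control libraries and at 10.2, 11.2 and 9.65 in the cKO-labelled ones, a rise of 0.47 ± 0.07 (log2, SE; limma adjusted p = 0.000108). Every cKO-labelled library was above every control library, as for 25.9% of all genes. Because FPKM over a whole gene counts the exons outside a deleted part, this level checks neither that the deletion happened nor that it did not, and the group is called cKO-labelled throughout. Of 22 other tested genes that start within 4 Mb of Ahr, 11 passed, 2 upward and 9 downward, where 39.6% of all genes passed, 20.5% upward and 19.1% downward. The strongest of them was Hdac9, a histone deacetylase gene, which fell by 1.08.

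The lysozyme locus that gives the Cre driver its name did differ. Since the cKO-labelled group alone carries Cre at this locus, an effect of the driver on Lyz2 and one of Ahr loss cannot be told apart. Lyz2 (chr10:117277331-117282321), the macrophage lysozyme, was at 19930, 19810 and 19974 FPKM in control libraries and at 11238, 11637 and 11505 in cKO-labelled libraries. It fell by 0.80 ± 0.02 (limma adjusted p = 9.39e-13), and the mean cKO-labelled level, 11460 ± 203, was 0.576 of the control mean of 19904 ± 85.1 (SD, n = 3). Lyz1, the neighbouring lysozyme best known from Paneth cells, lies 5.48 kb away and moved the other way. Its values were 144, 146 and 148 against 796, 834 and 828 FPKM, a 5.61-fold higher mean (2.48 ± 0.03, limma adjusted p = 2.39e-18). Lyz1 made up 0.728% of the FPKM of both genes in control libraries, 6.67% in cKO-labelled libraries and 3.81% in resident macrophages. The 2 genes are near-identical copies, and reads can be assigned to the wrong copy.

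Few other genes around Lyz2 changed. Of 26 other tested genes that start within 4 Mb, Lyz1 included, 5 (19.2%) passed. They were Lyz1, Rab21 (a small GTPase of endosomes, 0.51) and the uncharacterised 5330438D12Rik (0.38) upward, and Nup107 (a nuclear pore subunit, -0.26) and Helb (a DNA helicase, -0.42) downward. That share lies below the 39.6% of all genes. The call of 5330438D12Rik did not hold without cKO-labelled library 1, 2 or 3 or without control library 1 or 3 (limma adjusted p of 0.0506 to 0.171).

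**Figure D2:**
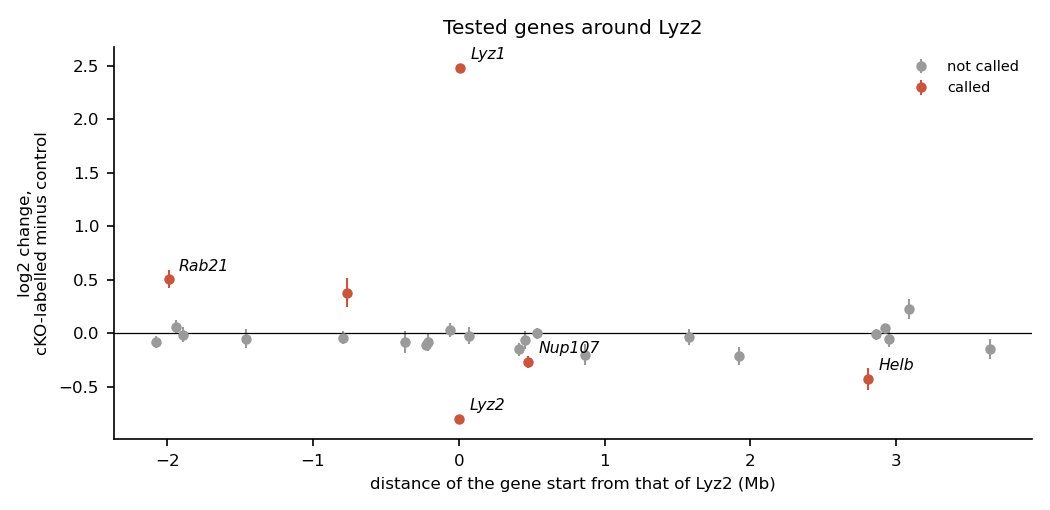
Log2 change (points, with SE as bars) of the tested genes within 4 Mb of Lyz2, by the distance between gene starts in Mb. Lyz1 at 2.48 and Lyz2 at -0.80 stand apart from their neighbours, none of which exceeds 0.51.

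Established AhR targets changed in both directions. Of 8 tested, 4 fell (19.1% of all genes did) and 2 rose (20.5% of all genes did), and Cyp1b1 and Il10 were the members that changed by at least 1.5-fold. Cyp1b1, a cytochrome P450 that is a classical AhR target, was at 2.15, 1.87 and 2.12 FPKM in control libraries and at 0.845, 0.759 and 0.746 in cKO-labelled libraries. Its level was thus lower in all 3 cKO-labelled libraries, by 0.77 ± 0.08 on the log2 scale (limma adjusted p = 1.82e-06). Tiparp, the ADP-ribosyltransferase that restrains AhR signalling, went from 34.4, 34.0 and 34.8 to 27.2, 26.6 and 27.6 FPKM and fell by 0.33. Serpinb2, a protease inhibitor, fell by 0.27 and Entpd1, the CD39 ectonucleotidase, by 0.18. Serpinb2 is also counted in the list for large peritoneal macrophages below. Il10, an anti-inflammatory cytokine, rose by 0.63 from a mean of 1.01 to 2.09 FPKM. Slc7a5, a tryptophan and leucine transporter, rose by 0.26, and of the 6 fits that left out a library only that without control library 1 kept this call (limma adjusted p of 0.0555 to 0.128 in the others). Ahrr, the AhR repressor (0.467 ± 0.0852 against 0.352 ± 0.163 FPKM, SD, n = 3), and Lpcat2, a lysophospholipid acyltransferase (119 against 118 FPKM), did not pass.

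Promoters are shown here for the target with the largest fall and for the feedback regulator, with GCGTG or ACGTG on either strand in capitals (on the other strand they read CACGC or CACGT). They run from 250 bases before to 50 after the RefSeq gene start on GRCm38.p6, at chr17:79715012-79715311 (minus strand) for Cyp1b1 and chr3:65528197-65528496 (plus strand) for Tiparp.
Cyp1b1: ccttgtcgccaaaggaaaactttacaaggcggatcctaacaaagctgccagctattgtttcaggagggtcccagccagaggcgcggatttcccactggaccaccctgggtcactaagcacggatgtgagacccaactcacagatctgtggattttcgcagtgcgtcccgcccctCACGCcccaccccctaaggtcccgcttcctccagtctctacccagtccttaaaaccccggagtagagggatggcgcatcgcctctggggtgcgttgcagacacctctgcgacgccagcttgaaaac
Tiparp: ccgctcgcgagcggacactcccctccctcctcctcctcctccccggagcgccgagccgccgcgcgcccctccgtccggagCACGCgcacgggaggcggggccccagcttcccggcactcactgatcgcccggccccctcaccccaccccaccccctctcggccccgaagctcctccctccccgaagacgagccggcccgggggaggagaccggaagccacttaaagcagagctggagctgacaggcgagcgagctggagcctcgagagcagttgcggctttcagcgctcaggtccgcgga
Both hold 1 GCGTG and no ACGTG. Of the 8 targets tested, 6 had a promoter in the RefSeq table and 5 of those held GCGTG. Over all 32851 promoters of 300 bases in that table, 32.4% held GCGTG, 19.6% held ACGTG and 43.8% held either, and over the 8452 tested genes with an entry the shares were 55.8%, 29.7% and 67.5%. A match says only that these letters are in the window.

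Of 8 tested genes of the AhR complex, the proteins that hold or accompany the receptor, 2 rose and 2 fell, beside 20.5% and 19.1% of all genes. Besides Ahr, Ptges3, which encodes the co-chaperone p23, rose by 0.61, from 7.65, 7.06 and 9.16 to 10.6, 14.5 and 13.04 FPKM. Arnt, the DNA-binding partner of AhR and of HIF, fell by 0.20 (10.8 ± 0.559 to 9.27 ± 0.251 FPKM, SD, n = 3), and Ncoa1, a coactivator, by 0.21. Ncoa1 did not pass without cKO-labelled library 1 or 3 or control library 2 or 3 (limma adjusted p of 0.0594 to 0.168). The chaperone subunits Hsp90ab1 (0.02) and Hsp90aa1 (-0.19) and the coactivator Ncoa2 (0.09) did not pass, though Hsp90aa1 did without cKO-labelled library 3 (limma adjusted p = 0.0486) or control library 2 (0.0341).

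**Figure D3:**
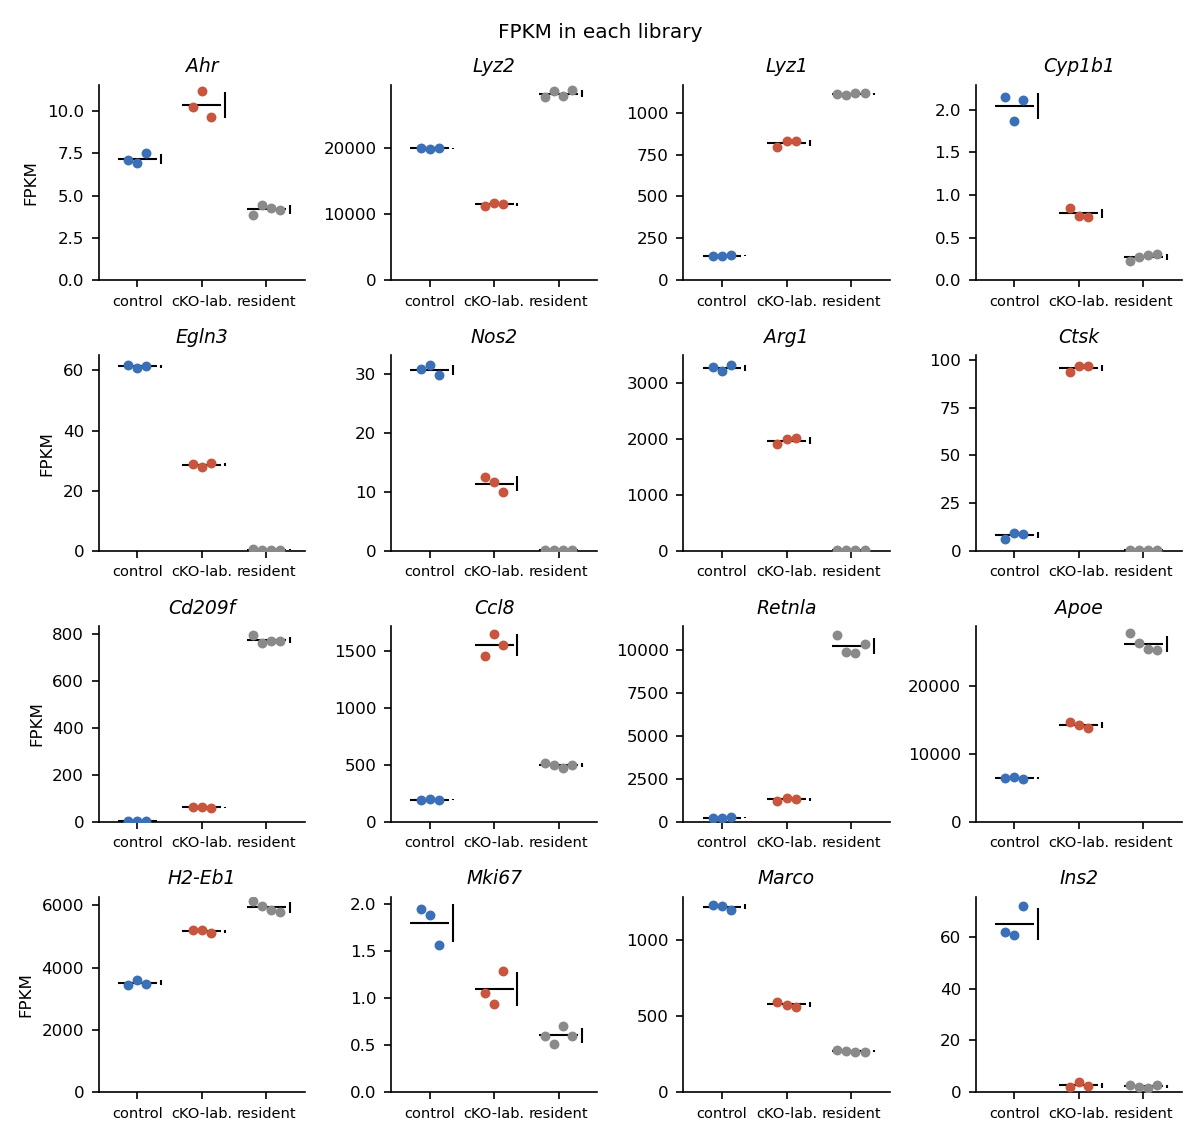
FPKM of 16 genes in each library (points), with group means (lines) and SD (bars) for control tumour (n = 3), cKO-labelled tumour (n = 3) and resident macrophages (n = 4). Every axis starts at 0. The 2 tumour groups do not overlap in any panel, nor do they in 51.4% of all genes. Ahr sits at 6.91 to 7.51 against 9.65 to 11.2 FPKM.

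The largest rises among genes with a mean of at least 10 FPKM in the higher group, clone and predicted names left out, began with a lectin. Cd209f, one of the mouse homologues of the C-type lectin DC-SIGN, was at 1.52, 1.41 and 1.69 FPKM in control libraries and at 62.5, 63.0 and 58.5 in cKO-labelled ones (4.62 ± 0.04, limma adjusted p = 7.22e-19). That is 39.8 times the control mean, while resident macrophages held 773 ± 14.1 FPKM (SD, n = 4). Ctsk, the collagen-degrading protease cathepsin K, went from 6.47, 9.14 and 9.07 to 94.0, 97.0 and 96.9 FPKM, 11.7 times higher (3.41 ± 0.09), and was at 0.636 ± 0.0594 FPKM in resident macrophages (SD, n = 4). Ccl8, a monocyte and eosinophil chemoattractant, went from 189, 195 and 190 to 1456, 1644 and 1545 FPKM (3.01 ± 0.04). Cd209f, Ctsk and Ccl8 each left a wide gap between the groups. The other 9 of the 12 largest rises above that level were Plvap (3.26), an endothelial diaphragm protein, Clps (3.06), Cel (2.54) and Pnlip (2.22), enzymes or cofactors of pancreatic fat digestion, Chp2 (2.69), a calcineurin B homologue, the lectin Clec4b1 (2.62), Lyz1 (2.48), Retnla (2.43) and Reg2 (2.28), a secreted lectin of the regenerating pancreas.

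The largest falls, again among genes with a mean of at least 10 FPKM in the higher group and without clone or predicted names, began with islet hormones. Ins2, which encodes insulin, was at 61.9, 60.6 and 71.8 FPKM in control libraries and at 2.16, 3.93 and 2.34 in cKO-labelled libraries (-4.13 ± 0.16, limma adjusted p = 1.67e-11), and Ins1 fell by 3.64. Among the other 10 were the placental hormone genes Prl2c3 (-1.92) and Prl2c2 (-1.48), near-identical copies of each other. Ucp1, the uncoupling protein of brown fat, fell by 1.77 from 34.1, 35.4 and 33.3 to 9.82, 8.71 and 9.54 FPKM. Enpp2, which encodes autotaxin, the enzyme that makes lysophosphatidic acid, fell by 1.77 from a mean of 17.8 to 4.53 FPKM, and the protease inhibitor Spink2 fell by 1.90. Gpnmb, a glycoprotein of lipid-laden and damage-associated macrophages, went from 34.6, 34.9 and 36.6 to 11.2, 13.1 and 12.5 FPKM (-1.46). C1s1 (complement component 1s, -1.41), Adm (-1.39), Nos2 (-1.36) and Apoc1 (an apolipoprotein, -1.15) completed the set.

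Genes induced by low oxygen fell together. Of 22 tested, 18 were lower and none higher, against 19.1% and 20.5% of all genes, with a median of -0.45 against 0.01 over all genes tested. Adm, the vasodilator peptide adrenomedullin, was at 29.7, 26.3 and 29.3 FPKM in control libraries and at 10.9, 9.66 and 10.1 in cKO-labelled libraries, a change of -1.39 ± 0.10 (limma adjusted p = 4.59e-08). Egln3, a prolyl hydroxylase that marks HIF for degradation, went from 62.0, 60.9 and 61.4 to 28.8, 28.0 and 29.1 FPKM (-1.07 ± 0.08, limma adjusted p = 8.05e-08). Ero1l, an oxidase of protein folding, fell by 0.91, Ndrg1 by 0.84, the mitochondrial kinase gene Ak4 by 0.82 and P4ha2, a collagen prolyl hydroxylase, by 0.78. Hilpda, which blocks lipid droplet breakdown, went from 255, 259 and 253 to 156, 164 and 171 FPKM and fell by 0.64. The mitophagy receptor gene Bnip3 fell by 0.48. None of these genes had overlapping groups, and 25.5% of all genes were likewise lower without overlap. The 4 members that did not pass were Vegfa, the vascular growth factor (48.7 ± 0.813 against 49.2 ± 0.814 FPKM, SD, n = 3), Hif1a itself (68.0 ± 2.0 against 69.2 ± 2.41), Higd1a (0.02) and Ddit4 (0.12). Nos2 and Slc2a1 are also counted in other lists below.

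The promoters of Adm, the hypoxia-list gene with the largest fall, of Egln3 and of P4ha2 are given in the same way, from chr7:110627407-110627706 (plus strand), chr12:54203825-54204124 (minus strand) and chr11:54100674-54100973 (plus strand) of GRCm38.p6 in RefSeq.
Adm: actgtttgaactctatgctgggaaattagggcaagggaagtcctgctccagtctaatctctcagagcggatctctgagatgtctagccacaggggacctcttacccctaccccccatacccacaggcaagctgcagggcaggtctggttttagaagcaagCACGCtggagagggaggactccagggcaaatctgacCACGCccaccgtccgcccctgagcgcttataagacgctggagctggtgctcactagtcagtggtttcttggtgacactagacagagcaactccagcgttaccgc
Egln3: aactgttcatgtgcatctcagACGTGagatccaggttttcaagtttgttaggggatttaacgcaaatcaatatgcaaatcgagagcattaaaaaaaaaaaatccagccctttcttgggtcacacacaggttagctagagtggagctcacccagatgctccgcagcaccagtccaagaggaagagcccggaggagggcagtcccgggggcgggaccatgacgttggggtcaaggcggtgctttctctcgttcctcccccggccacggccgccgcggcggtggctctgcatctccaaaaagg
P4ha2: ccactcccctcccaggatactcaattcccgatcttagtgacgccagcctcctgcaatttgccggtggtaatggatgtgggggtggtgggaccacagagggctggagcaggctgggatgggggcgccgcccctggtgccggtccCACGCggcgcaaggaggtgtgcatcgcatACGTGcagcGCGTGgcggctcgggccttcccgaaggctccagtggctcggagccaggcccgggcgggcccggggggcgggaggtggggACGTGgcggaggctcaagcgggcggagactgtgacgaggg
Adm held 2 GCGTG and no ACGTG, Egln3 held 1 ACGTG and no GCGTG, and P4ha2 held 2 of either. Only 13 of the 18 hypoxia genes that fell have an entry in the table, so no share is given for that list. The 20 genes of glycolysis that fell, described next, all had one: 12 (60.0%) held GCGTG and 14 (70.0%) held ACGTG, beside 55.8% and 29.7% of the tested genes with an entry. These shares carry no test.

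Glycolysis, the breakdown of glucose to pyruvate and lactate, was lower at nearly every step measured. Of 22 tested genes 20 fell and none rose (19.1% and 20.5% of all genes did), with a median of -0.39. The entry transporter Slc2a1 (GLUT1) went from 92.9, 94.8 and 95.4 to 71.5, 69.1 and 67.1 FPKM (-0.44). Further along, Gpi1, glucose-6-phosphate isomerase, went from 290, 299 and 289 to 188, 190 and 186 (-0.64 ± 0.03, limma adjusted p = 4.96e-10). Aldoa (aldolase) went from 1702, 1741 and 1698 to 1235, 1237 and 1201 FPKM (-0.49). Ldha, which turns pyruvate into lactate, went from 1580, 1578 and 1566 to 1142, 1192 and 1140 FPKM (-0.44). Pdk1, the kinase that keeps pyruvate out of the mitochondrion, fell by 0.64, and the lactate exporter Slc16a3 by 0.35. Groups did not overlap for any of these, as for 25.5% of all genes in this direction. Pgm1 (-0.09) and Hk2, a hexokinase (14.0 ± 0.948 against 13.8 ± 0.279 FPKM, SD, n = 3), did not pass. Several of these genes, Gapdh, Pgk1 and Ldha among them, have processed pseudogenes that share their reads.

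Genes of mitochondrial respiration were counted apart from these. Of 35 tested nuclear genes of oxidative phosphorylation 11 rose and 2 fell (20.5% and 19.1% of all genes did), with a median of 0.09. Ndufa4, a subunit bound to cytochrome c oxidase, went from 43.1, 47.9 and 50.8 to 77.6, 93.4 and 88.4 FPKM (0.86 ± 0.06, limma adjusted p = 7.19e-08). The other 10 rises were of 0.13 to 0.36, with Cox7c (0.36) and Ndufv2 (0.26) the largest of them. The ATP synthase subunit genes Atp5a1 (-0.16) and Atp5b (-0.13) fell. This direction rested on the scaling: with libraries rescaled to a common sum 3 rose and 6 fell, with a median of 0.01.

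**Figure D4:**
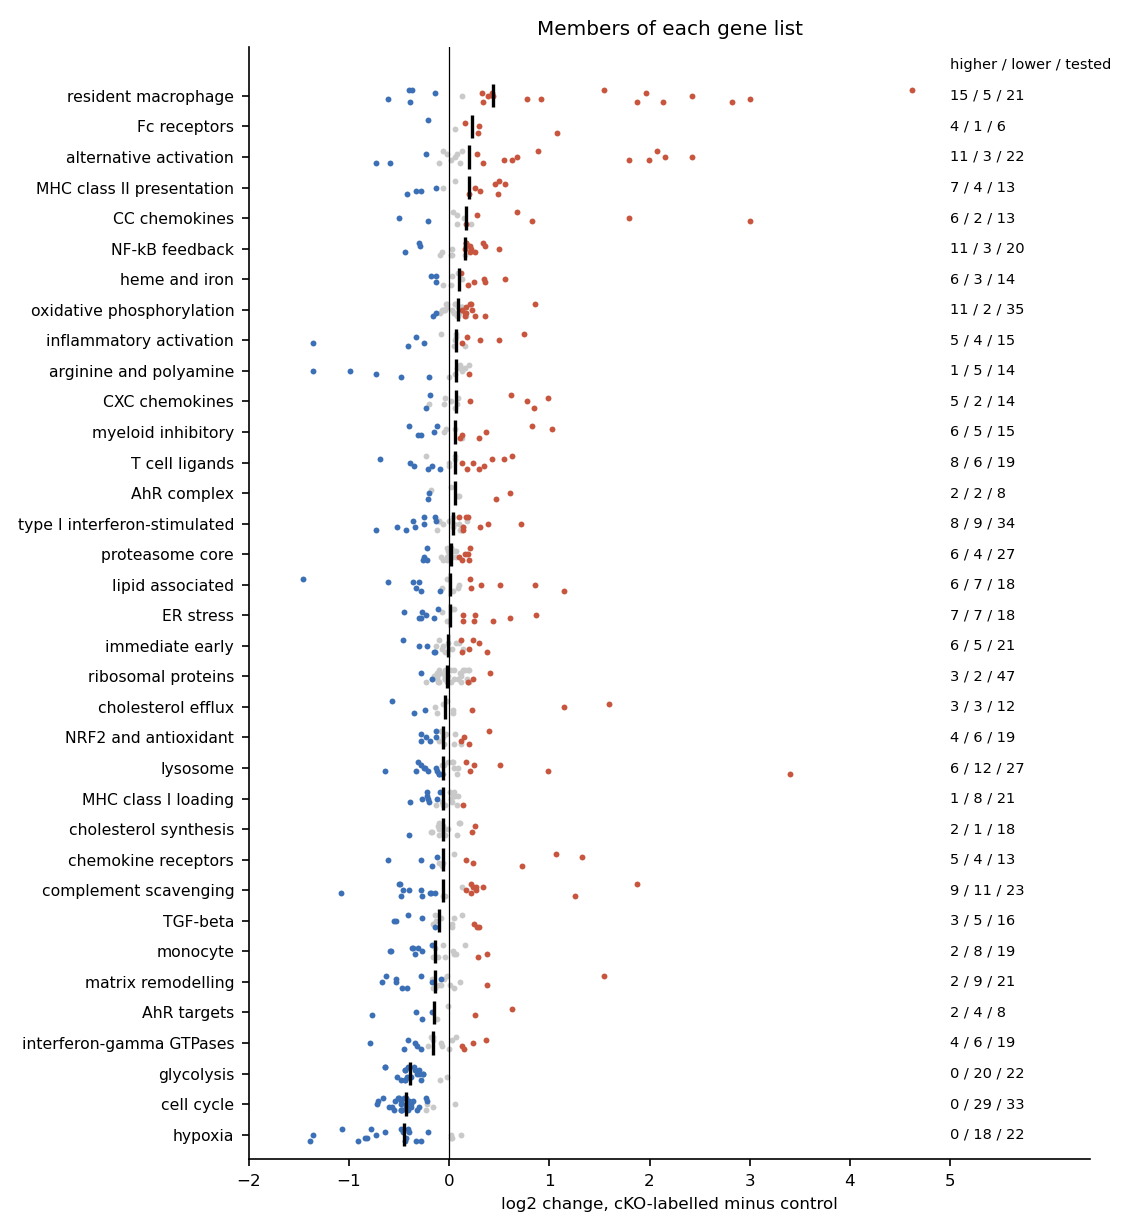
Log2 change of every tested member (points) of 35 gene lists, with the list median as a black bar and the counts higher, lower and tested at the right. Red and blue points passed the test upward and downward, grey points did not. Hypoxia (median -0.45), cell cycle (-0.43) and glycolysis (-0.39) hold no member that rose, and the resident macrophage list (0.44) has the highest median.

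Arginine feeds either nitric oxide or polyamines in macrophages, through Nos2 or Arg1, and both genes fell. Nos2, inducible nitric oxide synthase, was at 30.9, 31.6 and 29.9 FPKM in control libraries and at 12.5, 11.8 and 10.0 in cKO-labelled ones (-1.36 ± 0.08, limma adjusted p = 4.42e-09). Arg1, arginase 1, went from 3274, 3212 and 3322 to 1904, 1993 and 2008 FPKM (-0.73 ± 0.04, limma adjusted p = 6.55e-10). The arginine importer Slc7a2 went from 57.9, 54.6 and 56.0 to 27.4, 27.5 and 28.2 FPKM (-0.99). These 3 genes were lower in every cKO-labelled library than in any control library, as were 25.5% of all genes. In the list of 14, 5 fell and 1 rose (19.1% and 20.5% of all genes did), with a median of 0.07. Azin1, an antizyme inhibitor, fell by 0.48 and Odc1, ornithine decarboxylase, by 0.20, the latter not passing without control library 1 (limma adjusted p = 0.0547). Got1, an aspartate transaminase, rose by 0.20. The remaining 8 of the 14 tested did not pass, among them Arg2 (6.95 ± 0.936 against 7.67 ± 0.582 FPKM, SD, n = 3).

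Genes of cell division were lower. Of 33 tested 29 fell and none rose (19.1% and 20.5% of all genes did), with a median of -0.43. Ccnb2, a mitotic cyclin, was at 27.0, 25.1 and 28.1 FPKM in control libraries and at 15.0, 15.8 and 16.8 in cKO-labelled ones (-0.72 ± 0.07, limma adjusted p = 2.20e-06). Rrm2, the regulated subunit of ribonucleotide reductase, went from 26.2, 24.5 and 24.9 to 16.8, 17.3 and 15.7 FPKM (-0.58). Among helicase genes of DNA replication, Mcm6 fell by 0.50, Mcm2 by 0.48 and Mcm3 by 0.43. The spindle checkpoint kinase gene Bub1 fell by 0.71, and Mki67, the proliferation antigen, went from 1.95, 1.87 and 1.56 to 1.05, 0.942 and 1.29 FPKM (-0.42). Cdk2 (0.06), Tyms (-0.16), Nusap1 (-0.22) and Aurka (-0.23) did not pass, though Nusap1 did without control library 2 (limma adjusted p = 0.0424) and Aurka without control library 1 (0.0293). In bulk RNA, fewer dividing cells and less of these transcripts per cell cannot be told apart, and the same holds for every cell type marker below.

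Markers of tissue-resident macrophages were higher for the greater part. Of 21 tested 15 rose (20.5% of all genes did) and 5 fell, with a median of 0.44. Among the Cd209 lectins, Cd209g went from 0.4999, 0.635 and 0.487 to 9.82, 9.61 and 10.3 FPKM (2.82) and Cd209d from 0.930, 1.18 and 1.23 to 7.004, 7.40 and 7.35 (1.97). The family members Cd209a (1.26), Cd209b (1.198) and Cd209e (0.49) rose as well, and Cd209c did not pass (0.31); their sequences are alike enough that reads may be split between them. Without cKO-labelled library 2 Cd209e was at 0.27 and did not pass (limma adjusted p = 0.0506), while Cd209c passed without cKO-labelled library 1 (0.44) or control library 3 (0.45). Cbr2, a carbonyl reductase, went from 61.2, 62.8 and 64.3 to 277, 288 and 271 FPKM (2.13 ± 0.04, limma adjusted p = 5.67e-16). Gas6, the ligand that bridges dying cells to the receptors AXL and MERTK, went from 22.1, 21.8 and 21.5 to 82.2, 83.6 and 81.7 FPKM (1.87). The folate receptor gene Folr2 went from 18.5, 16.6 and 16.8 to 49.97, 55.8 and 51.0 FPKM (1.54). Groups were far apart for all of these. Smaller rises were those of Igf1 (0.91), Pf4 (0.78), the hyaluronan receptor Lyve1 (0.44), the ficolin gene Fcna (0.42), F13a1 (0.39) and the mannose receptor Mrc1 (0.34).

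Among the 5 resident markers that fell were Cx3cr1, the fractalkine receptor (31.4, 32.5 and 31.6 against 21.4, 20.5 and 19.8 FPKM, -0.61), Timd4, a phosphatidylserine receptor (91.0, 87.5 and 95.2 against 68.2, 69.7 and 68.6, -0.40), Vsig4, a complement receptor (-0.39), and Stab1 (-0.14). Stab1 passed in 1 of the 6 fits that left out a library, that without cKO-labelled library 2, and its limma adjusted p was 0.051 to 0.121 in the others. Timd4 and Vsig4 are also counted in a list for large peritoneal macrophages, the cells of the cavity around the pancreas, which moved the same way: 13 of 20 fell and 2 rose (19.1% and 20.5% of all genes did), with a median of -0.26. Gata6, the transcription factor that defines those cells, went from 16.2, 15.1 and 15.7 to 9.81, 10.4 and 9.14 FPKM (-0.63 ± 0.07, limma adjusted p = 9.64e-06), and Fabp7 from 62.0, 57.2 and 58.6 to 30.1, 31.1 and 32.8 (-0.90). Icam2 fell by 0.25 and Alox15, the most abundant after Saa3, did not pass (1389 ± 20.9 against 1376 ± 11.8 FPKM, SD, n = 3). The summed FPKM of the 20 genes was 7187 to 7249 in control and 6620 to 6731 in cKO-labelled libraries. Whether such cells had a part in the falls of Timd4 and Vsig4 was not tested.

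Genes of alternative activation, the program that interleukin 4 and interleukin 13 induce in macrophages, rose more often than they fell. Of 22 tested 11 rose and 3 fell (20.5% and 19.1% of all genes did), with a median of 0.20. Retnla, the secreted protein RELMα, went from 235, 238 and 251 to 1219, 1391 and 1307 FPKM (2.43 ± 0.05, limma adjusted p = 2.17e-15), 5.41 times higher, and was at 10266 ± 482 FPKM in resident macrophages (SD, n = 4). The galactose-type lectins Clec10a (27.8, 27.0 and 24.3 against 124, 120 and 118, 2.15) and Mgl2 (34.9, 37.99 and 35.0 against 154, 151 and 157, 2.07) rose together; they lie side by side on chromosome 11. Chil4 rose by 1.999 from 0.390 ± 0.110 to 4.57 ± 0.666 FPKM (SD, n = 3), while its close copy Chil3 (Ym1) went from 400, 395 and 402 to 262, 269 and 266 FPKM (-0.59). The chemokine genes Ccl17 (1.80) and Ccl22 (0.67), both from low levels, and Pdcd1lg2, which encodes PD-L2 (0.55), rose. Arg1, described above, and Klf4 (-0.23) fell, the latter not passing without cKO-labelled library 1 or control library 1 or 2 (limma adjusted p of 0.0578 to 0.0653). Retnla and Arg1, often measured as markers of the same state, thus moved in opposite directions. The groups did not overlap in either, nor in 51.4% of all genes.

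Lipid handling changed gene by gene. Of 18 tested genes of lipid-associated macrophages 6 rose and 7 fell (20.5% and 19.1% of all genes did). Apoe, the main apolipoprotein of macrophages, was at 6464, 6654 and 6243 FPKM in control libraries and at 14730, 14241 and 13822 in cKO-labelled ones (1.14 ± 0.04, limma adjusted p = 1.42e-12). Pltp, which moves phospholipid between lipoproteins, went from 204, 210 and 203 to 631, 614 and 626 FPKM (1.59 ± 0.03, limma adjusted p = 2.17e-15). Lpl, lipoprotein lipase, rose by 0.86, from a mean of 36.9 to 67.7 FPKM, and the tetraspanin gene Cd63 by 0.51. Against these, Gpnmb fell by 1.46, Fabp5, a fatty acid carrier, by 0.61 and Plin2, which coats lipid droplets, by 0.36. Trem2, the lipid-sensing receptor, and Spp1, osteopontin, did not pass, with Spp1 at 1056 ± 9.31 against 1042 ± 19.6 FPKM (SD, n = 3). Of 12 tested genes of cholesterol efflux 3 rose and 3 fell, and the transporter gene Abca1 did not pass (-0.12). In cholesterol synthesis, where 15 of 18 did not pass, Mvd fell by 0.40 while Mvk rose by 0.23. Mvk passed without cKO-labelled library 3 but not without any other single library (limma adjusted p of 0.0725 to 0.12).

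Among 27 tested lysosomal genes 12 fell and 6 rose (19.1% and 20.5% of all genes did). Apart from Ctsk, which led this list, the rises were those of Atp6v0d2, a proton pump subunit (0.98), Cd63 (0.51), Hexa (0.25), Ctsb, cathepsin B (1570, 1647 and 1662 against 1848, 1886 and 1885 FPKM, 0.20) and Ctsh (0.17). Glb1, β-galactosidase, went from 118, 127 and 122 to 81.0, 79.1 and 73.6 FPKM (-0.64 ± 0.04, limma adjusted p = 1.52e-08), and the cathepsin genes Ctsl (-0.33), Ctsd (-0.28) and Ctss (-0.14) fell.

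Of 13 tested genes of antigen presentation by MHC class II 7 rose and 4 fell (20.5% and 19.1% of all genes did). The list median was 0.20. H2-Eb1 was at 3448, 3611 and 3491 FPKM in control libraries and at 5200, 5207 and 5115 in cKO-labelled ones (0.56 ± 0.03, limma adjusted p = 6.55e-10). H2-Ab1 rose by 0.50, Cd74, the invariant chain, by 0.48 (16661, 17083 and 16714 against 23586, 23905 and 23090 FPKM) and H2-Aa by 0.46, and the peptide exchange genes H2-DMb1, H2-DMb2 and H2-DMa by 0.30, 0.26 and 0.20. All 7 were higher in every cKO-labelled library than in any control library, as were 25.9% of all genes. Ciita, the transactivator of these genes, went from 35.1, 38.2 and 35.1 to 29.2, 29.9 and 29.5 FPKM (-0.28), and H2-Ob (-0.42), the thiol reductase gene Ifi30 (-0.33) and Ctss fell. Markers of dendritic and B cells, which also carry class II, were higher too: the 16 dendritic genes in the table summed to 1663 to 1706 FPKM against 2262 to 2399, and the 10 B and plasma cell genes to 96.1 to 104 against 252 to 256. Cst3 made up most of the dendritic sum and of its rise, and Ighm most of the B and plasma sum and of its rise. The part of dendritic and B cells in the class II result was not tested.

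Among 21 tested genes of MHC class I and its loading machinery 8 fell and 1 rose (19.1% and 20.5% of all genes did). The list median was -0.06. Pdia3, a disulfide isomerase of the peptide-loading complex, went from 536, 508 and 515 to 392, 392 and 407 FPKM (-0.39), the trimming peptidase gene Erap1 fell by 0.27 and Tapbp, tapasin, by 0.22. B2m, the shared light chain, rose by 0.14 with groups that overlapped (3820, 3769 and 4074 against 3866, 4544 and 4445 FPKM). That call did not hold without cKO-labelled library 2 or 3 or control library 1 or 2 (limma adjusted p of 0.1 to 0.164), and B2m was at -0.09 after quantile normalization. The heavy chain genes H2-K1 (0.01) and H2-D1 (0.06) did not pass.

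Interferon-stimulated genes changed in both directions. Of 34 genes of the type I response 8 rose and 9 fell (20.5% and 19.1% of all genes did), with a median of 0.04. Scaling moved that count to 6 and 12 with median-of-ratios, 5 and 12 with quantile normalization and 3 and 12 with a common sum, where the median was -0.029. Ifit2 went from 32.5, 31.0 and 33.2 to 17.7, 20.8 and 18.7 FPKM (-0.73) and Rsad2, viperin, from 23.5, 21.4 and 20.2 to 15.3, 14.4 and 14.9 (-0.52). Ifit3b (0.71), which may share reads with its near copy Ifit3, and Rtp4 (0.39) rose. Of 19 interferon-gamma genes 6 fell and 4 rose, with a median of -0.16. The falls and rises were 9 and 4 with median-of-ratios, 9 and 3 with quantile normalization and 11 and 2 with a common sum. The guanylate-binding protein genes Gbp2b (262, 238 and 245 against 142, 139 and 146 FPKM, -0.79), Gbp5 (-0.45) and Gbp3 (-0.41) were among the falls, and the immunity-related GTPase genes Tgtp2 (0.36) and Igtp (0.24) among the rises. Cxcl9 (55.9 ± 2.17 against 54.1 ± 2.42 FPKM, SD, n = 3) and Cxcl10 (73.5 ± 1.596 against 74.6 ± 2.31), chemokines that interferon-gamma induces, did not pass.

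Inflammatory cytokines moved in both directions. Of 15 tested genes of classical activation 5 rose and 4 fell (20.5% and 19.1% of all genes did). Il1b was at 249, 260 and 251 FPKM in control libraries and at 308, 317 and 317 in cKO-labelled ones (0.31). Osm, oncostatin M, went from 59.6, 58.8 and 59.3 to 81.3, 85.8 and 85.3 FPKM (0.50), and Ebi3, a subunit of interleukins 27 and 35, from 16.4, 17.8 and 18.7 to 29.2, 31.6 and 30.2 (0.75). Besides Nos2, the falls were those of Acod1, the itaconate-producing enzyme (104, 98.4 and 98.1 against 76.1, 76.2 and 73.4 FPKM, -0.41), Ptgs2, cyclooxygenase 2 (-0.33), and Il1a (-0.25), which did not pass without cKO-labelled library 1 or 2 or control library 1 (limma adjusted p of 0.0545 to 0.075). Tnf (8.85 ± 0.768 against 8.28 ± 0.676 FPKM, SD, n = 3) and Il6 (0.16) did not pass. Of 20 NF-κB subunit and feedback genes 11 rose and 3 fell, with a median of 0.16. Bcl3, an atypical inhibitor of NF-κB, rose by 0.50 and Nfkb2 by 0.35, while the feedback inhibitor genes Tnfaip3 (A20, -0.44) and Nfkbia (-0.30) fell. With libraries rescaled to a common sum this list had 5 rises and 5 falls.

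Chemokine genes changed in both directions. Of 13 CC chemokine genes 6 rose and 2 fell (20.5% and 19.1% of all genes did), with a median of 0.17. Ccl8 stood far above the others, followed by Ccl17 and by Ccl12, a monocyte attractant (80.4, 90.8 and 93.4 against 142, 169 and 161 FPKM, 0.83). Ccl4 (76.4, 74.4 and 77.4 against 52.3, 58.4 and 49.6, -0.50) and Ccl3 (-0.21) fell, and Ccl2 did not pass (152 ± 5.28 against 160 ± 7.28 FPKM, SD, n = 3). Ccl8, Ccl12 and Ccl2 lie in the same gene cluster. Of 14 CXC and CX3C ligand genes 5 rose and 2 fell. The neutrophil attractants Cxcl5 (2.59, 2.76 and 3.07 against 6.43, 5.49 and 5.61 FPKM, 0.85), Cxcl3 (0.62) and Ppbp (0.99) rose. Of 13 receptor genes 5 rose, led by Cxcr2 (1.56, 1.46 and 1.75 against 5.79, 5.25 and 5.36, 1.32), Cxcr3 (1.07) and Ccr3 (0.73), and 4 fell, led by Cx3cr1. Cxcr2 and Ccr3 also serve below as markers of neutrophils and eosinophils.

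Ligands that macrophages present to T cells were split between rises and falls. Of 19 tested 8 rose and 6 fell (20.5% and 19.1% of all genes did), with a median of 0.06. Ido1, the tryptophan-degrading enzyme whose product kynurenine is an AhR ligand, went from 21.8, 22.7 and 22.2 to 13.8, 12.5 and 14.0 FPKM (-0.69 ± 0.12, limma adjusted p = 0.000238), a call that did not hold at a pseudocount of 0.1 (-0.73, limma adjusted p = 0.147). Cd274, which encodes PD-L1, went from 68.1, 67.6 and 68.3 to 56.8, 59.1 and 59.4 FPKM (-0.22), and Havcr2, TIM-3, fell by 0.35. Tgfb1, transforming growth factor β1, rose from 56.8, 56.1 and 57.0 to 71.7, 70.1 and 67.6 FPKM (0.30), and Cd48, a ligand of the receptor 2B4, rose by 0.43. PD-L1 and PD-L2 thus moved in opposite directions. Of 15 inhibitory receptor genes of myeloid cells 6 rose and 5 fell. Siglecg (6.93, 6.26 and 6.69 against 14.3, 14.6 and 14.7 FPKM, 1.03) and the inhibitory lectin gene Clec4a2 (0.82) rose, and Sirpa, the receptor for the CD47 signal (195, 192 and 194 against 149, 144 and 146, -0.40), fell.

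Of 23 tested uptake receptor and complement genes 9 rose and 11 fell (20.5% and 19.1% of all genes did), with a median of -0.06. Marco, a scavenger receptor for bacteria and particles, went from 1234, 1228 and 1202 to 594, 578 and 563 FPKM (-1.08 ± 0.03, limma adjusted p = 2.16e-13), and Msr1, scavenger receptor A, from 360, 353 and 351 to 240, 258 and 256 (-0.50). The receptor kinase genes Mertk (-0.46) and Axl (-0.48) fell while their ligand Gas6 rose. C1qa, C1qb and C1qc, the subunits of C1q, rose by 0.22, 0.27 and 0.24, with C1qb at 4720, 4823 and 4657 against 5784, 5741 and 5600 FPKM. C3, the central complement protein, fell by 0.49. Hpgd, which inactivates prostaglandins, rose by 1.26 from 5.64 ± 0.359 to 14.9 ± 0.785 FPKM (SD, n = 3). Of 6 Fc receptor genes 4 rose, led by Fcgrt, the neonatal receptor that recycles IgG (183, 191 and 171 against 401, 378 and 372 FPKM, 1.07), and Fcgr4 fell (-0.21).

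Among 21 tested genes of the extracellular matrix and its proteases 9 fell and 2 rose (19.1% and 20.5% of all genes did). The list median was -0.14. Mmp19 (-0.67), Timp3 (-0.63) and fibronectin, Fn1 (-0.17), were among the falls. Mmp9, gelatinase B, went the other way, from 41.2, 41.8 and 41.5 to 125, 126 and 118 FPKM (1.55 ± 0.03, limma adjusted p = 7.74e-15), and Thbs1, thrombospondin 1, rose by 0.38. Of 16 genes of the TGF-β pathway 5 fell and 3 rose.

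Of 19 tested monocyte genes 8 fell and 2 rose (19.1% and 20.5% of all genes did), with a median of -0.14. Ly6c2, which marks inflammatory monocytes, went from 23.4, 23.6 and 25.4 to 18.2, 20.4 and 17.1 FPKM (-0.36), whereas Ccr2 (159 ± 8.50 against 164 ± 11.3 FPKM, SD, n = 3) and Plac8 (0.04) did not pass. Of 16 genes of macrophage identity 7 fell and 4 rose. That list includes Lyz2, its largest fall (-0.80). Lyz2 made up 19904 of a mean sum of 26950 FPKM in control libraries and 11460 of 18931 in cKO-labelled ones. Csf1r (540, 537 and 526 against 462, 452 and 449 FPKM, -0.23), Adgre1 (-0.25) and Itgam (-0.34) fell, the last 2 encoding proteins by which the cells were sorted. Aif1, IBA1 (0.43), Tyrobp, a signalling adaptor (0.31), and Spi1, the transcription factor PU.1 (0.21), rose, and Cd68 did not pass (1014 ± 9.92 against 1035 ± 14.6 FPKM).

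Stress and housekeeping lists held both rises and falls, as did all genes tested, of which 20.5% rose and 19.1% fell. The ER stress list had 7 rises and 7 falls among 18, led by Herpud1 (62.7, 65.0 and 59.7 against 112, 118 and 113 FPKM, 0.86) and Dnajb9 (0.60). Immediate-early genes, which also respond to tissue dissociation, had 6 rises and 5 falls among 21: Ier2 (0.38) and Egr1 (0.30) rose, Jun (-0.22) and Fos (-0.14) fell. Of 19 antioxidant genes 4 rose and 6 fell, of 14 heme and iron genes 6 rose and 3 fell, of 27 proteasome genes 6 rose and 4 fell, and of 47 ribosomal protein genes 3 rose and 2 fell. With libraries rescaled to a common sum the rises and falls were 4 and 8 for ER stress, 3 and 10 for immediate-early, 1 and 10 for antioxidant, 4 and 4 for heme and iron, 3 and 7 for proteasome and 2 and 8 for ribosomal protein genes.

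Markers of cells other than macrophages differed between the groups. Acinar enzymes of the pancreas were higher. Of 24 tested 22 rose and none fell (20.5% and 19.1% of all genes did), with a median of 1.77. Cela2a, an elastase, was at 10.7, 11.4 and 10.3 FPKM against 44.98, 46.6 and 44.9 (1.98), and Prss2, trypsin, at 22.02, 20.8 and 23.4 against 78.6, 80.6 and 77.8 (1.79). The 25 acinar genes in the table summed to 119 to 127 FPKM in control libraries, 0.0267% of all FPKM, and to 451 to 470 in cKO-labelled libraries, 0.0944%, beside a mean of 36427 in resident libraries. Islet markers went the other way, with 4 of 5 lower. Their sum was 87.9 to 101 FPKM in control and 7.47 to 8.54 in cKO-labelled libraries, Iapp (amylin) fell by 1.89 and Gcg, glucagon, rose by 1.06 from 0.410 ± 0.0778 to 1.94 ± 0.257 FPKM (SD, n = 3). Both sums differed between the groups by far more than they varied within one. No marker that the lists and the table share, for any cell type, was at 0 in all 6 tumour libraries.

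**Figure D5:**
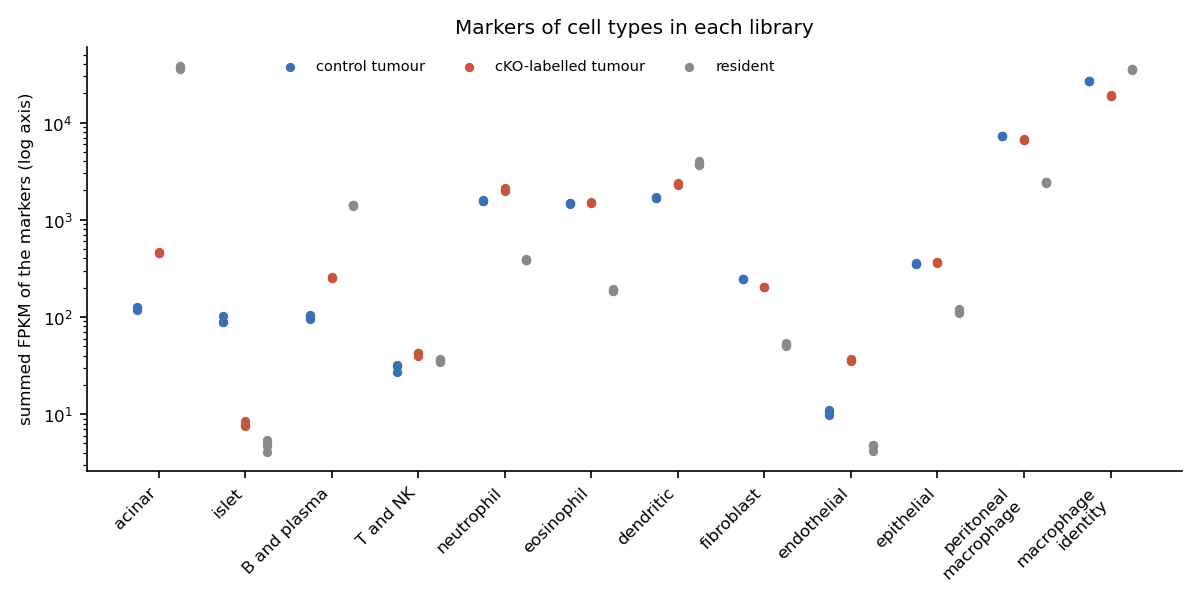
Summed FPKM of the marker genes of 12 cell types in each library (points, log axis) of control tumour, cKO-labelled tumour and resident macrophages. The acinar sum is 119 to 127 in control and 451 to 470 in cKO-labelled libraries, and the islet sum 87.9 to 101 and 7.47 to 8.54. The macrophage identity sum includes Lyz2. Cst3, Ighm and Alox15 make up most of the dendritic, the B and plasma and the eosinophil sums in the tumour libraries.

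Of 10 tested B and plasma cell genes 6 rose and none fell (20.5% and 19.1% of all genes did). Ighm, the immunoglobulin μ chain, was at 83.3, 87.2 and 78.8 FPKM in control libraries and at 218, 223 and 220 in cKO-labelled ones (1.40), and Cd79b at 5.27, 6.76 and 6.19 against 18.7, 17.8 and 18.1 (1.45); Ms4a1 and Pax5 were not analysed here. Of 14 dendritic cell genes 8 rose and Irf8 fell (-0.12), a call that did not hold without cKO-labelled library 2 or 3 or control library 1 or 2 (limma adjusted p of 0.0634 to 0.0821). Cd209a went from 18.4, 16.9 and 17.7 to 42.8, 44.3 and 43.9 FPKM (1.26), Batf3 from 18.1, 12.8 and 14.7 to 31.2, 35.8 and 33.6 (1.10) and Cst3 from 1220, 1253 and 1234 to 1817, 1885 and 1758 (0.56); Xcr1 and Clec9a were not analysed here. The part of such cells in the rises of Cd209a, Ccl17, Ccl22 and class II genes was not tested. Of 14 T and NK cell genes 9 rose, Gzmb (1.18 ± 0.387 to 3.43 ± 0.529 FPKM, SD, n = 3, 1.03) the most, and Il7r fell (-0.79), and the summed level was 27.4 to 31.8 FPKM against 39.7 to 42.2.

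Granulocyte genes were counted by type. Of 13 neutrophil genes 9 rose and Ngp fell (-0.45), where 20.5% of all genes rose and 19.1% fell. The neutrophil list summed to 1543 to 1580 FPKM in control and 1959 to 2136 in cKO-labelled libraries. S100a9 went from 25.1, 28.7 and 22.3 to 53.1, 59.4 and 58.7 FPKM (1.14), S100a8 rose by 0.93 and Ltf, lactoferrin, by 1.37. Mmp9 and Cxcr2, described above, belong to this list, and the part of neutrophils in their rises was not tested. Retnlg, the most abundant of the list, rose by 0.28 (1150, 1169 and 1179 against 1336, 1491 and 1434), a call that held without cKO-labelled library 1 and was lost without any other single library (limma adjusted p of 0.0688 to 0.117). Of 6 eosinophil genes 4 rose, among them Siglecf (15.7, 14.1 and 16.0 against 27.6, 26.3 and 26.9 FPKM, 0.78), Ear2 (0.88) and Ccr3 (0.73), while the list's sum was 1457 to 1495 FPKM in control and 1498 to 1521 in cKO-labelled libraries. Alox15 made up most of that sum, which therefore says little about the other members, and is also counted among the large peritoneal macrophage genes. Neither Alox15 nor Prg2 (34.4 ± 0.792 against 35.0 ± 3.10 FPKM, SD, n = 3) passed.

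All 5 endothelial genes tested rose, where 20.5% of all genes rose and 19.1% fell. The sum over 8 endothelial genes was 9.74 to 11.1 FPKM in control and 35.1 to 36.9 in cKO-labelled libraries. Plvap, at 0.810, 0.490 and 1.29 against 17.9, 15.7 and 16.4 FPKM, made up much of that sum, while Kdr (0.551, 0.417 and 0.472 against 1.08, 1.18 and 1.29), Esam (1.13) and Egfl7 (1.19) rose from low levels. Of 11 fibroblast genes 4 fell and 3 rose: Dcn, decorin, went from 52.5, 53.3 and 52.9 to 24.7, 23.4 and 25.2 FPKM (-1.09) and Col1a2 fell by 0.81, while Postn, periostin (1.15), Lum (0.61) and Col1a1 (0.40) rose. The 14 fibroblast genes in the table summed to 244 to 248 FPKM in control and 201 to 205 in cKO-labelled libraries; fibroblasts also express Ctsk, and their part in its rise was not tested. Epithelial genes summed to 352 to 360 FPKM in control and 356 to 366 in cKO-labelled libraries, with overlapping ranges: of 15 tested 5 rose, Epcam (8.72, 7.99 and 9.76 against 13.1, 14.7 and 14.8, 0.63) among them, and 2 fell, Krt19 (-0.25) and Msln (-0.31), of which Krt19 passed in none of the 6 fits that left out a library (limma adjusted p of 0.0624 to 0.133).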

How the data were processed

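Macrophages were sorted from tumours for 6 libraries and from healthy pancreas for 4. Their RNA was amplified with SMART-Seq v4 and made into Nextera XT libraries, per the labels' protocols. This chemistry does not mark strand, so reads of a gene and of an antisense partner cannot be told apart. Either of 2 RNA extraction kits was used, and which library had which is not given in the sources used here, so the part of the kit in any difference was not tested. The authors deposited 1 table of FPKM values for all 10 libraries. STAR, edgeR, mm10 and GRCm38 are named, with no version or role, per the submitters' processing notes. The gene lengths behind the FPKM, the library scaling and any gene filter were not given there either. No column belonged to another study.

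Groups came from the labels. Genes that reached an FPKM of 1 in 3 or more of the 10 libraries entered limma 3.58.1 (R 4.3.3), run on log2(FPKM + 1), in 1 model with a mean for each of 3 groups (7 residual degrees of freedom), empirical Bayes moderation with a trend on mean level, and Benjamini-Hochberg adjustment over the 11127 genes at a threshold of 0.05; every adjusted p in the text is from limma. Values are FPKM per library or mean ± SD, and changes are log2 differences of cKO-labelled minus control with SE. Data were simulated for the comparison of the tumour groups (10 draws, 200 of 11127 genes changed). There the test recovered 38.4% of 1.2-fold, 92.6% of 1.5-fold, 99.4% of 2-fold and 100% of 4-fold changes, and 4.87% of its calls were false. The noise was drawn independently for each gene with the spread of these same libraries. That false share thus follows the threshold of 0.05 and does not measure false calls among the 4410 genes that passed.

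Depth was sought in the low values: with gene length taken from the longest annotated transcript, 85.9% to 87.3% of low values in the tumour libraries were whole reads within 0.05, at 10311263 to 26455632 reads. Those reads were tested with limma-voom as an alternative chosen after seeing the data. The other alternatives were pseudocounts (0.1, 0.5), filters (none, 5 FPKM) and scalings (common total, median of ratios, quantile), the 6 tumour libraries alone, array weights, no variance trend, a block for the replicate number, and leaving out each tumour library. Samples sharing a replicate number did not deviate together, so the numbers were not treated as pairs.

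The comparison and the 51 gene lists were chosen with earlier results of these data known, and lists are described by counts and medians with no test. The text names part of what the following rule returned: Ahr, Lyz2, Lyz1 and the AhR target and complex genes; the 12 largest rises and 12 largest falls that passed, reached a mean of 10 FPKM in the higher group and did not overlap; and, in each list, the 4 largest changes that passed, the 2 most abundant members and the smallest p. Another 94 of the 261 genes named were chosen after their values were seen. Some genes are not reported here. Coordinates are from GENCODE M21 (GRCm38), 312 of 316 unnamed genes were named by identifier, and promoters are from RefSeq (GRCm38.p6). Near-identical copies (Lyz1 and Lyz2, and the Cd209, Prl2c, Ins, Chil, Ifit3 and Gbp genes) can exchange reads, and their values are uncertain to that extent.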

Additional observations from a re-analysis of the deposited data

Results flagged for a closer look

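Among the 16 genes plotted by library, the values of the 4 resident libraries were compared with each other for a single value far from the rest. One gene had such a value: Ctsk was at 0.54695 FPKM in the lowest resident library and at up to 0.67145 in the highest, and the gap below the other 3 was 0.907 of the whole range, past the limit at which chance gives such a gap in about 1 in 20 groups. With 16 groups compared, 1 such gap is about what chance gives. The Ctsk level of both tumour groups is far above the range of the resident libraries.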

How the results depend on the processing

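The number of genes that passed was 4410, with 3496 to 3901 when 1 tumour library was left out, and 477 to 505 and 141 to 150 of these changed by at least 1.5-fold and 2-fold (480 and 147 with all libraries). A pseudocount of 0.1 raised those last counts to 831 and 280, since it lets low genes change more, and limma-voom on recovered reads, chosen after seeing the data, to 883 and 309; the cause of the latter was not tested. With libraries rescaled to a common total 1501 genes were higher (2283 as deposited) and 3625 of the 4410 genes still passed. The replicate block gave 4436 genes, 2337 higher and 2099 lower; among named genes 5330438D12Rik, Ncoa1 and Stab1 no longer passed with it (limma adjusted p = 0.0626, 0.0834 and 0.071), Aurka, Cd209c and Hsp90aa1 newly passed (0.0433, 0.028 and 0.045), and it changed no other of their calls. Deviations of samples with the same replicate number correlated at 0.00417, -0.04421 and 0.08836, the largest value between a control and a cKO-labelled library was that of control 2 and cKO-labelled 1 (0.12236), and not every sample correlated best with its own number.

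For 260 named genes recomputed in every setting that tested them, 4484 of 4650 values kept both direction and call, 85 no longer passed, 43 newly passed and 38, of 17 genes, changed sign. Of these 17 only B2m had passed. With a common total the values were Ccl2 -0.0040, Ccr2 -0.035, Cd68 -0.049, Cdk2 -0.013, Cxcl10 -0.057, H2-D1 -0.021, H2-K1 -0.074, Hif1a -0.054, Higd1a -0.053, Hsp90ab1 -0.062, Plac8 -0.043, Prg2 -0.057 and Vegfa -0.062. Quantile normalization gave B2m -0.090, Cxcl10 -0.0024, H2-D1 -0.26, H2-K1 -0.14, Hif1a -0.0038, Hsp90ab1 -0.054, Plac8 -0.013, Prg2 -0.0059, Spp1 0.042 and Vegfa -0.0079. Median-of-ratios scaling gave H2-K1 -0.010, and voom gave H2-K1 -0.016, Hsp90ab1 -0.0056, Prg2 -0.015 and Vegfa -0.0081. With 1 tumour library left out, Cdk2 ranged from -0.015 to 0.13, Cxcl10 from -0.0031 to 0.039, H2-K1 from -0.0048 to 0.020, Higd1a from -0.057 to 0.089, Hk2 from -0.051 to 0.032, Lpcat2 from -0.030 to 0.021 and Prg2 from -0.036 to 0.088. Calls of Gbp10 and Pdcd1lg2 did not hold at a pseudocount of 0.1 (limma adjusted p = 0.0704 and 0.0513), as for Ido1, nor those of Ctsh and C1qb after quantile normalization (0.0686 and 0.0857), Got1 with a common total (0.0765) and Cox7c with voom (0.0523). The median changed sign in at least 1 setting for 14 of 47 lists with more than 1 tested member. The medians of those 14 with all libraries lay between -0.02 and 0.14.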
